A study of Mus musculus with 3 samples.

Results

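The 10 enzymes and isoforms examined here act on the path from glucose to lactate in the cytosol: Hk2, Gpi1, Pfkl, Aldoa, Tpi1, Gapdh, Pgk1, Eno1, Pkm and Ldha. They were taken by name from the gene list of the count matrix, as 10 of its 31053 genes. The rule itself uses no measured value, but the members were chosen with earlier results of these data known. Each was matched to the gene symbol column, and their 341108 unique molecular identifiers (UMIs, each marking 1 captured transcript) in the cells kept are the data described.

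The cells were splenic dendritic cells (DCs) of C57BL/6 mice, which were either leukemia-bearing or WT and were treated for 2 days with panobinostat, an inhibitor of histone deacetylases, or with vehicle. There were 2 leukemia samples treated with panobinostat, 2 leukemia samples treated with vehicle, 1 WT sample treated with panobinostat and 1 WT sample treated with vehicle. Cells came from an Optiprep gradient, from a sort that kept the GFP-negative fraction and from an EasySep kit that depletes cells other than DCs, and the 6 samples were marked with hashtag antibodies and loaded together in 1 capture (10x Genomics 3′ v3). The series title names acute myeloid leukemia (AML), and the labels do not say how it was given or whether each hashed sample was a separate animal. Within a class, p-values measure the spread between these 6 samples, which may be technical. Between classes, with hashed sample as a block, they measure how far class differences vary over the 6 samples of 1 capture. Treatment and disease state were read from the names of the hashtag features, in which D5W was taken as the dextrose vehicle and LBH as panobinostat.

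Of 38717 barcodes, 22521 carried a single hashtag, and 19242 cells with 165914563 UMIs were kept after filters on genes, mitochondrial reads and doublets. Clusters built without the glycolysis genes gave 6 DC-like classes with 13490 cells: 3697 mature DC-like cells, 2703 plasmacytoid (pDC-like) cells, 505 cycling and 2603 non-cycling cDC1-like cells, and 519 cycling and 3463 non-cycling cDC2-like cells. The names rest on marker genes. Ccr7, the receptor that guides DCs to lymph nodes, had 1621 CPM (UMIs of the gene per 1000000 UMIs of the class) in mature cells and 21.6 CPM in the other DC-like cells, and Siglech had 2352 CPM in pDC-like cells and 9.85 CPM in the others. Xcr1 had 524 CPM in non-cycling cDC1-like cells and 87.8 CPM in the others, and Sirpa had 200.3 CPM in non-cycling cDC2-like cells and 38.7 CPM in the others. Mgl2 had no UMI in cycling cDC2-like cells, and Clec10a was lower in both cDC2-like classes than in the rest (2.42 and 5.91 CPM in cycling and non-cycling cells, against 38.3 and 43.6 CPM). Cd209a (27.0 CPM, against 65.4 CPM), Cd4 (30.3 and 40.5 CPM) and Tnip3 (1.76 and 8.66 CPM) were also lower in cycling cDC2-like cells than in the rest, and Tnip3 was lower in non-cycling ones (7.30 and 8.59 CPM). Sirpa, Clec4a4, Itgam, Esam and Clec4a2 were higher in both cDC2-like classes than in the other DC-like cells. Esam had 20.2 CPM in cycling cDC2-like cells, against 12.8 CPM in the others. Of the 10 cDC2 markers, 4 counted as raised in the cycling cDC2-like cluster and 6 in each non-cycling one, and the names rest on these counts. The non-cycling cDC2-like class pools 2 clusters, of 3129 and 334 cells, with 37.1 and 2785.5 CPM of the monocyte marker Lyz2. The 10 cDC2 markers together do not set these classes apart from pDC-like cells, where they summed to 744 to 873 CPM, against 383 to 421.5 CPM in cycling and 519 to 862 CPM in non-cycling cDC2-like cells. The 36 sums of class and sample held 199709 to 12896933 UMIs from 38 to 1501 cells, the smallest being the pDC-like cells of the WT panobinostat sample. Leukemia vehicle sample 2 stood apart, with a median of 12025 UMIs per kept cell of any class. Its median was 140 UMIs of its own hashtag, against medians of 354 to 767 hashtag UMIs in the other samples. Of its 2153 kept cells, 748 were in unnamed non-cycling clusters and 369 were cycling erythroid-like cells. Its 204 non-cycling cDC1-like cells held 2726532 UMIs, against 3752338 UMIs in 275 such cells of leukemia vehicle sample 1. Its 293 pDC-like cells held 1613395 UMIs, against 5994198 UMIs in 1099 such cells of that sample.

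Glycolysis splits glucose into pyruvate and yields ATP without oxygen, and lactate dehydrogenase then turns pyruvate into lactate. DCs that are activated are known to raise glycolytic flux early on, and dividing cells use the intermediates for building blocks. Hk2, the inducible hexokinase, traps glucose as glucose 6-phosphate. Gpi1 isomerises it, and Pfkl is the liver-type subunit of phosphofructokinase, the main point of control. Aldoa, an aldolase, splits the sugar in the middle, and Tpi1 interconverts the resulting triose phosphates. Gapdh, Pgk1, Eno1 and Pkm act on the way to pyruvate, with a phosphoglycerate mutase between Pgk1 and Eno1 that is not among the members. Ldha is the subunit of lactate dehydrogenase that favours lactate. Several steps have further isoenzymes from other genes, which are described after the 10 members.

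The genes are scattered over the genome (GRCm38 coordinates of GENCODE release M21). Ldha lies at chr7:46841475-46855627 (plus strand), Aldoa at chr7:126795234-126800751 (minus strand) and Gpi1 at chr7:34201330-34230336 (minus strand). Hk2 lies at chr6:82725025-82774454 (minus strand), Tpi1 at chr6:124810586-124814296 (minus strand) and Gapdh at chr6:125161715-125166467 (minus strand). Eno1 lies at chr4:150236721-150248879 (plus strand), Pkm at chr9:59656368-59679375 (plus strand), Pfkl at chr10:77986947-78010083 (minus strand) and Pgk1 at chrX:106187100-106203699 (plus strand). All are annotated as protein-coding. A second row of the matrix also called Aldoa had 0 UMIs, and the near-identical copy Eno1b had 11 UMIs, against 7442 UMIs of Eno1. Gapdh and other members have processed pseudogenes, and how reads that match several places were counted is not given in the sources used here.

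Promoters are printed for 4 members: Hk2, Tpi1 and Ldha, whose levels spanned the widest ranges between classes, and Aldoa, which moved against Tpi1 in cycling cells. Each is 250 bases before to 50 after the RefSeq start on GRCm38.p6, written along the strand of the gene. Capitals mark the hypoxia response core ACGTG or its reverse complement CACGT, and the E-box CACGTG, which holds both. The Ldha promoter printed, 1 of 2, is chr7:46845554-46845853 (plus strand), and the Aldoa promoter printed, 1 of 3, is chr7:126799205-126799504 (minus strand). The Hk2 promoter is chr6:82774405-82774704 (minus strand) and the Tpi1 promoter is chr6:124814109-124814408 (minus strand).
Ldha: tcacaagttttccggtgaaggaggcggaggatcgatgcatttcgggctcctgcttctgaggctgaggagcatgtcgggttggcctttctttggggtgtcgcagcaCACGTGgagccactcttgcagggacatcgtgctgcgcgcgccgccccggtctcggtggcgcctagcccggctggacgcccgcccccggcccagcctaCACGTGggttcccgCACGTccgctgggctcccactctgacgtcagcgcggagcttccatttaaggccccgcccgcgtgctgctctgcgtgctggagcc
Hk2: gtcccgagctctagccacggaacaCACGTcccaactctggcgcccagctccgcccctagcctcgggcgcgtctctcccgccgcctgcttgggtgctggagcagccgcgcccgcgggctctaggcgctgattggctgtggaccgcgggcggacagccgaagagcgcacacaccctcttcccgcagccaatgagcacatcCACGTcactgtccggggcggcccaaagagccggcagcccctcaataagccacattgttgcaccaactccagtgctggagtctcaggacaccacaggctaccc
Tpi1: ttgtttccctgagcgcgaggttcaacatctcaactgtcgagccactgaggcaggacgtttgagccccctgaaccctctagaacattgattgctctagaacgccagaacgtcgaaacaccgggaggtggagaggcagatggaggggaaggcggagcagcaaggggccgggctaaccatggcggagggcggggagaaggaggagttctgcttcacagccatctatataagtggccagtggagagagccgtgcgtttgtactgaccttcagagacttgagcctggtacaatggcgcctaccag
Aldoa: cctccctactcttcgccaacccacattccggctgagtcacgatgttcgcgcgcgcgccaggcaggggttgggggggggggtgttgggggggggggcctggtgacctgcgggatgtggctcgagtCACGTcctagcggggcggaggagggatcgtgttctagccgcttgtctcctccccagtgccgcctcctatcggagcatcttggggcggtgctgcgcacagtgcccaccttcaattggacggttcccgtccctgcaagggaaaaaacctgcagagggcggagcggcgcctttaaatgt
The Ldha window held 5 matches to ACGTG, counted over both strands and including those inside its 2 E-boxes, while the Hk2 window held 2 matches, the Aldoa window 1 and the Tpi1 window 0. Promoters were found for all 10 members, with 16 start sites in all. Ldha has 2 starts, and its other window, chr7:46846832-46847131, held 0 matches to ACGTG. Aldoa has 3 starts, and its window chr7:126800398-126800697 held 0 matches. Counted by start site, ACGTG was in 7 of the 16 windows and in 19.6% of 32851 promoters. ACGTG was in a window of 6 members (Aldoa, Gapdh, Hk2, Ldha, Pgk1 and Pkm) and of 21.8% of 27025 genes, CACGTG in 1 member (Ldha) and 8.09% of genes, and the GC box GGGCGG in 9 members and 38.2% of genes. These are matches of letters on either strand in these windows.

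Summed over the 10 members, the message of these enzymes took the largest share of UMIs in cycling cells and the smallest in mature and pDC-like cells. The sum averaged 2665 ± 224 CPM in cycling cDC1-like cells and 2501 ± 119 CPM in cycling cDC2-like cells, 1983 ± 220.4 CPM in non-cycling cDC1-like cells and 1669.8 ± 128 CPM in non-cycling cDC2-like cells, and 1292 ± 121 CPM in mature and 1289 ± 38.1 CPM in pDC-like cells (SD, n = 6 hashed samples each). Samples of the cycling classes overlapped with each other and lay apart from the non-cycling cDC1-like samples, and the mature and pDC-like samples overlapped with each other and lay below all others. Much of the cycling excess of the sum was Gapdh. Its mean was 1153 CPM in cycling and 705 CPM in non-cycling cDC1-like cells, and 1384 and 677 CPM in cDC2-like cells. In both lineages the means of Tpi1, Pgk1, Eno1, Pkm and Ldha were also higher in cycling cells, and those of Hk2, Gpi1 and Aldoa were lower. The members did not share a single order. Cycling cDC1-like cells had the highest mean for 5 members, cycling cDC2-like cells for 2 (Gapdh and Eno1), and non-cycling cDC1-like cells (Gpi1), non-cycling cDC2-like cells (Hk2) and mature cells (Aldoa) for 1 each. Mature cells had the lowest mean for 5 members and pDC-like cells for 4, while Aldoa was lowest in cycling cDC2-like cells. In cells thinned to 2000 UMIs each, the median cell held 5 member UMIs in both cycling classes and 3 in both non-cycling cDC classes. It held 2 in mature and pDC-like cells. At equal depth per cell, cycling cells thus stayed highest and mature and pDC-like cells lowest, but the order inside these pairs did not hold. The thinned mean was 4.98 UMIs in cycling cDC1-like and 5.04 UMIs in cycling cDC2-like cells. It was 2.41 UMIs in mature and 2.56 UMIs in pDC-like cells. Unthinned medians ran from 4394 UMIs per mature cell to 18851 UMIs per cycling cDC1-like cell.

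**Figure D1:**
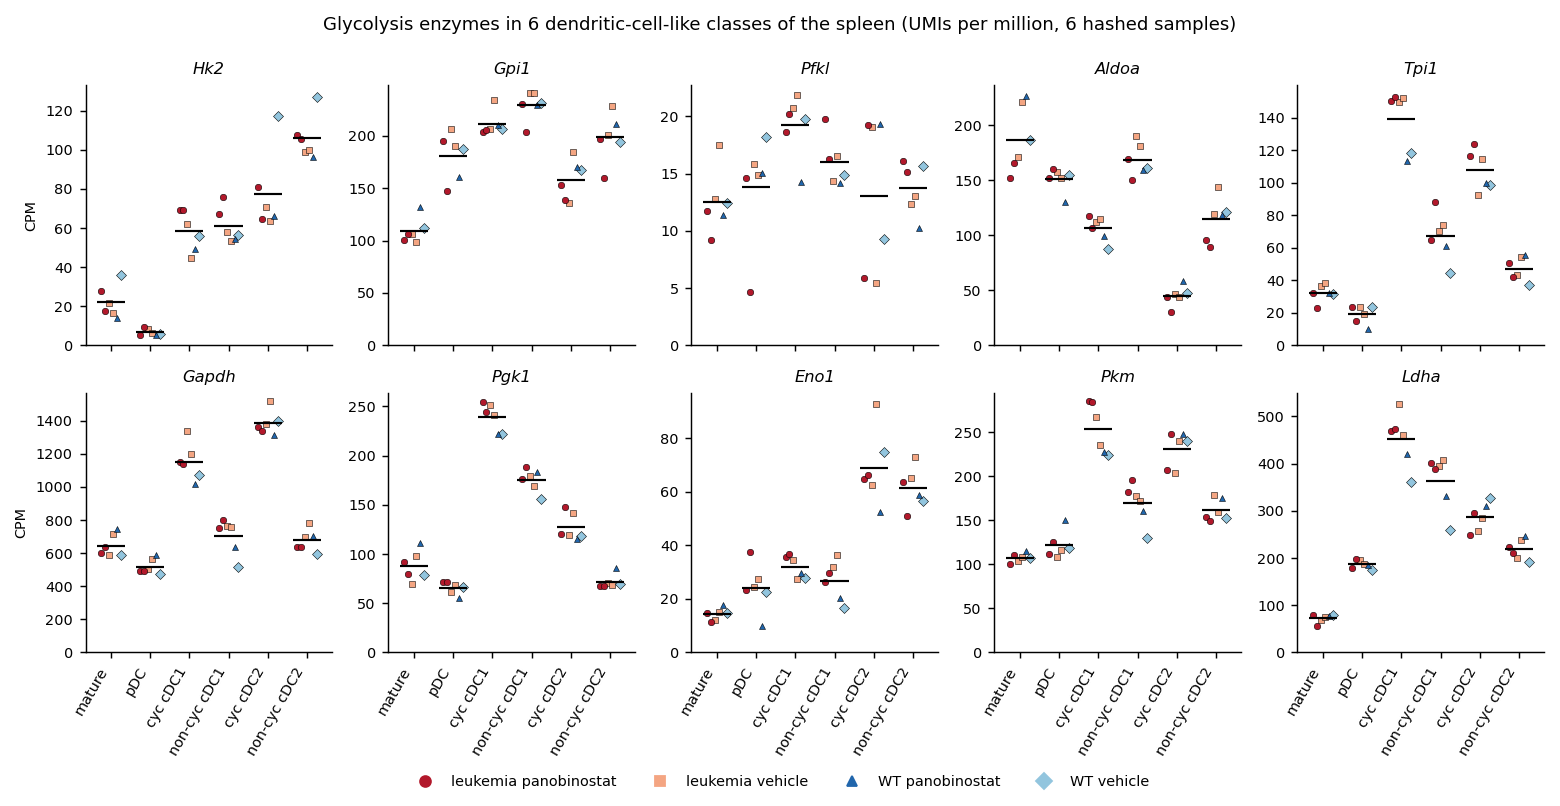
Level of each member in each DC-like class, in CPM (linear axis from 0, own scale per gene). Each point is 1 of 6 hashed samples and each bar the mean of a class. Hk2 runs to a mean of 6.70 CPM in pDC-like cells and 106 CPM in non-cycling cDC2-like cells, Tpi1 is highest in both cycling classes, and Aldoa is highest in mature cells.

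The span between classes differed among the enzymes. It was widest for Hk2, whose highest class mean was 15.8-fold its lowest, followed by Tpi1 (7.25-fold), Ldha (6.23-fold), Eno1 (4.82-fold), Aldoa (4.15-fold) and Pgk1 (3.64-fold). It was narrower for Gapdh (2.67-fold), Pkm (2.36-fold), Gpi1 (2.10-fold) and Pfkl (1.54-fold). Pfkl was the least abundant member in the data with 2412 UMIs in all kept cells, and the ranges of its classes next to each other in level overlapped throughout. Gpi1 stepped down with overlapping neighbours until mature cells, whose 6 samples lay below all other classes. Across the 36 sums, log2(CPM + 1) of Pkm, Tpi1 and Gapdh followed the summed level most closely (Pearson r = 0.962, 0.942 and 0.907), Ldha and Pgk1 less closely (r = 0.818 and 0.810), and Aldoa ran against it (r = -0.604). Outside the pathway lists, Ppp1ca, Dnph1, Pcbp1, Srsf7 and Hspd1 had the patterns most like the summed level (r = 0.954, 0.953, 0.952, 0.952 and 0.948). Each member is itself part of the summed level, so the correlations of members are in part built in. This holds most for Gapdh, with 518 of 1289 CPM in pDC-like and 1384 of 2501 CPM in cycling cDC2-like cells. The sums also share 6 samples, 1 capture and depth, so these correlations are a description.

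Mature DC-like cells, named from Ccr7 and other mature DC markers, had less Hk2, Eno1, Ldha and Gpi1 message than non-cycling cDC2-like cells, and more Aldoa. Hk2 had a lowest, median and highest level of 13.9, 19.5 and 35.95 CPM in mature cells, against 96.3, 103 and 127 CPM in non-cycling cDC2-like cells. Every mature sample lay below every cDC2-like sample, and the fitted difference was -1.92 ± 0.12 on the log2 scale (SE). Ldha had 56.7, 76.4 and 78.9 CPM in mature cells, against 191, 217 and 246 CPM in cDC2-like cells, again without overlap (-1.31 ± 0.09). Eno1, which makes phosphoenolpyruvate, had 11.3, 14.6 and 17.9 CPM in mature cells and 50.9, 61.2 and 72.9 CPM in cDC2-like cells (-1.76 ± 0.13). Gpi1 was lower by less (-0.59 ± 0.07). Aldoa had 152, 179 and 227 CPM in mature cells, against 89.7, 119 and 144 CPM in cDC2-like cells, with no overlap (0.96 ± 0.09). Thus 4 members were lower and 1 higher, where 43.7% of all 10400 genes tested were called. A call here needed an adjusted p under 0.05 (edgeR quasi-likelihood test, Benjamini-Hochberg over all genes) and a change of at least 1.5-fold. The adjusted p was 1.8e-19 for Hk2, 1.7e-17 for Ldha, 1.9e-16 for Eno1, 1.4e-13 for Aldoa and 2.6e-09 for Gpi1, with 6 of 6 samples in the direction of each. The median log2 difference was -0.299 over the members and -0.005 over all genes tested.

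Pfkl, Tpi1, Gapdh, Pgk1 and Pkm were not called between mature and cDC2-like cells, with log2 differences of 0.01, -0.27, 0.19, 0.54 and -0.33. The sign for Gapdh turned with the scaling: its fitted difference was above 0, but its mean was 646 CPM in mature and 677 CPM in cDC2-like cells and 5 of 6 samples were lower in mature cells. With total UMIs in place of scaling factors its difference was -0.06, the median over all genes moved to -0.25, and the same 5 members were called. The Gpi1 call lay near the 1.5-fold limit and was lost under 9 alternatives, among them DESeq2 and the fits without leukemia panobinostat sample 1, leukemia vehicle sample 1 or leukemia vehicle sample 2 (log2 differences of -0.55, -0.57 and -0.55), and Pgk1 was called under 5 alternatives: by DESeq2 (0.59), without doublet removal (0.59), with coarser (0.80) or finer clusters (0.60) and without leukemia vehicle sample 1 (0.60). Erythroid marker genes summed to 1925 to 3081 CPM in mature cells and 1174 to 1743 CPM in non-cycling cDC2-like cells with all 8 markers present in both, and their part in these differences was not tested.

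Against non-cycling cDC1-like cells, the cross-presenting class, mature cells were lower in 6 members and higher in 0. Ldha had 56.7, 76.4 and 78.9 CPM in mature cells, against 260.0, 392 and 407 CPM in cDC1-like cells (lowest, median and highest). The ranges lay far apart, and the difference of -2.16 ± 0.09 was the largest among the members. Hk2 (-1.24 ± 0.12), Gpi1 (-0.94 ± 0.07), Tpi1 (-0.88 ± 0.11), Pgk1 (-0.87 ± 0.08) and Eno1 (-0.62 ± 0.14) were lower as well, each in 6 of 6 samples. The largest adjusted p among these 6 was 9.4e-05 for Eno1 (edgeR quasi-likelihood test, Benjamini-Hochberg), whose ranges overlapped between the classes. Pkm, the last ATP-yielding step, missed the 1.5-fold limit (-0.52), and Pfkl (-0.28), Aldoa (0.26) and Gapdh (0.01, and -0.12 with total UMIs in place of scaling factors) were not called. Of all genes tested, 51.5% were called, 20.9% of all genes as lower, and the median log2 difference was -0.746 over the members and 0.127 over all genes. The Eno1 call was lost without doublet removal (-0.42) and with finer clusters (-0.30). Pkm was called under 8 alternatives, among them the fits without leukemia vehicle sample 1 (-0.60), leukemia vehicle sample 2 (-0.63), leukemia panobinostat sample 2 (-0.61) or the WT panobinostat sample (-0.67).

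**Figure D2:**
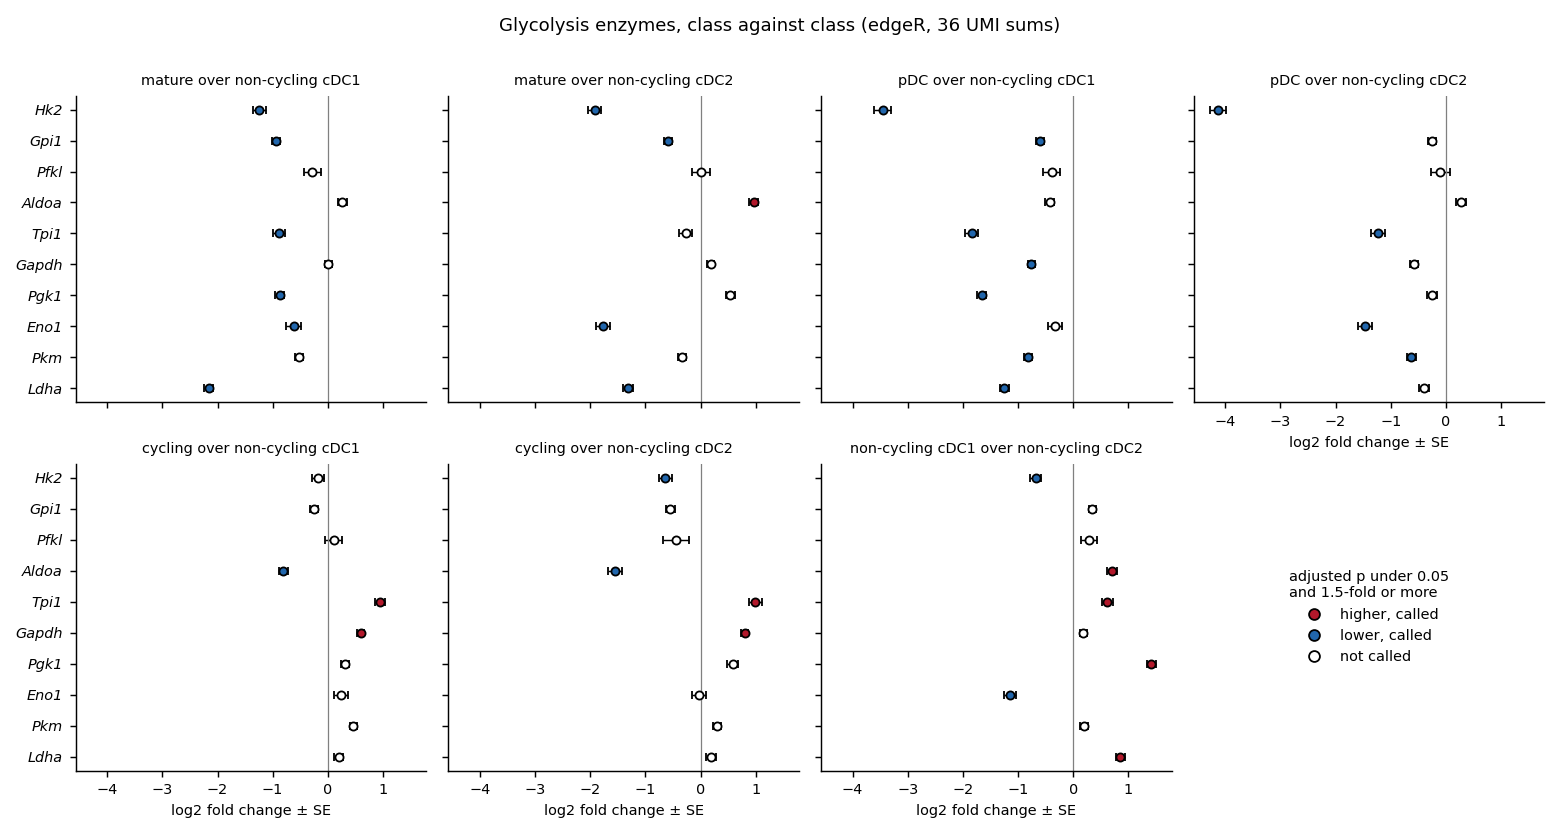
Log2 fold change of each member between classes (points) with its standard error (bars), from 1 edgeR fit on 36 UMI sums. Filled points passed an adjusted p under 0.05 and a 1.5-fold change. The 2 lowest points are Hk2 in pDC-like cells, at -3.45 against non-cycling cDC1-like cells and -4.13 against non-cycling cDC2-like cells, and Aldoa moves against Tpi1 and Gapdh in both cycling comparisons.

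The mature class held 6 clusters that differed in these enzymes. The summed level was 981 CPM in the largest cluster of 1157 cells, led by Dkk2 and Crispld2, and 1059 CPM in a cluster of 566 cells led by Wfdc21 and Lta. It was 1319 CPM in a cluster of 1134 cells led by Prph and Arc, and 1441 CPM in a cluster of 522 cells led by the chemokine Ccl17 and Clu. A cluster of 222 cells led by Elobl and Psca had 2205 CPM, with 458 CPM of Aldoa and 1159 CPM of Gapdh but 2.93 CPM of Hk2. A cluster of 96 cells led by Fabp1 and Tnni1 had 2152 CPM, with 146 CPM of Hk2 and 248 CPM of Ldha, and 69.8% of its cells came from the WT vehicle sample. Hk2 was lowest in the clusters led by Elobl, by Prph and by Ccl17, at 2.93, 6.62 and 9.36 CPM. Ccr7 ran from 410 CPM in the cluster led by Fabp1 and 516 CPM in that led by Elobl to 2202 CPM in that led by Prph. An unnamed cluster of 313 cells led by Il12b had 673 CPM of Ccr7 and a summed level of 1592 CPM, and entered no comparison. Over single mature cells thinned to 2000 UMIs, the number of member UMIs varied more than counting alone gives, by an added 48.2% of the mean, against 14.2% in pDC-like and 30.7% in non-cycling cDC2-like cells.

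The list of isoenzymes also holds the mutases Pgam1, Pgam2 and Bpgm, which have no counterpart among the members. Of its 10 genes tested, 4 were higher and 0 lower in mature than in non-cycling cDC2-like cells, and 5 were higher and 5 lower than in non-cycling cDC1-like cells. Eno2 and Eno3, the enolases named for neurons and muscle, were both higher there while Eno1 was lower. Eno3 had 259, 238, 319, 343, 377 and 348 CPM in mature cells of leukemia panobinostat samples 1 and 2, leukemia vehicle samples 1 and 2, the WT panobinostat and the WT vehicle sample. Its range in non-cycling cDC2-like cells was 46.5 to 91.9 CPM and in non-cycling cDC1-like cells 4.68 to 16.4 CPM, so each mature sample lay above all of these. Against cDC2-like cells the log2 difference of Eno3 was 2.43 ± 0.10, and against cDC1-like cells it was 4.85 ± 0.11. Eno2 had 30.1 to 43.8 CPM in mature cells, against 0.277 to 1.48 CPM in cDC2-like cells, and 5.39 ± 0.21 was its log2 difference. Pfkfb3, which makes the strongest activator of phosphofructokinase, had 249 to 339.8 CPM in mature cells, against 14.4 to 27.5 CPM in cDC2-like cells and 8.25 to 22.5 CPM in cDC1-like cells. Its log2 differences were 4.11 ± 0.12 and 4.20 ± 0.11. The adjusted p was 4.4e-26 for Eno3, 3.1e-26 for Eno2 and 4.4e-31 for Pfkfb3 against cDC2-like cells (edgeR quasi-likelihood test, Benjamini-Hochberg), with 6 of 6 samples higher for each. Eno3, and Pfkfb3 against cDC1-like cells, were named after their values were seen.

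**Figure D3:**
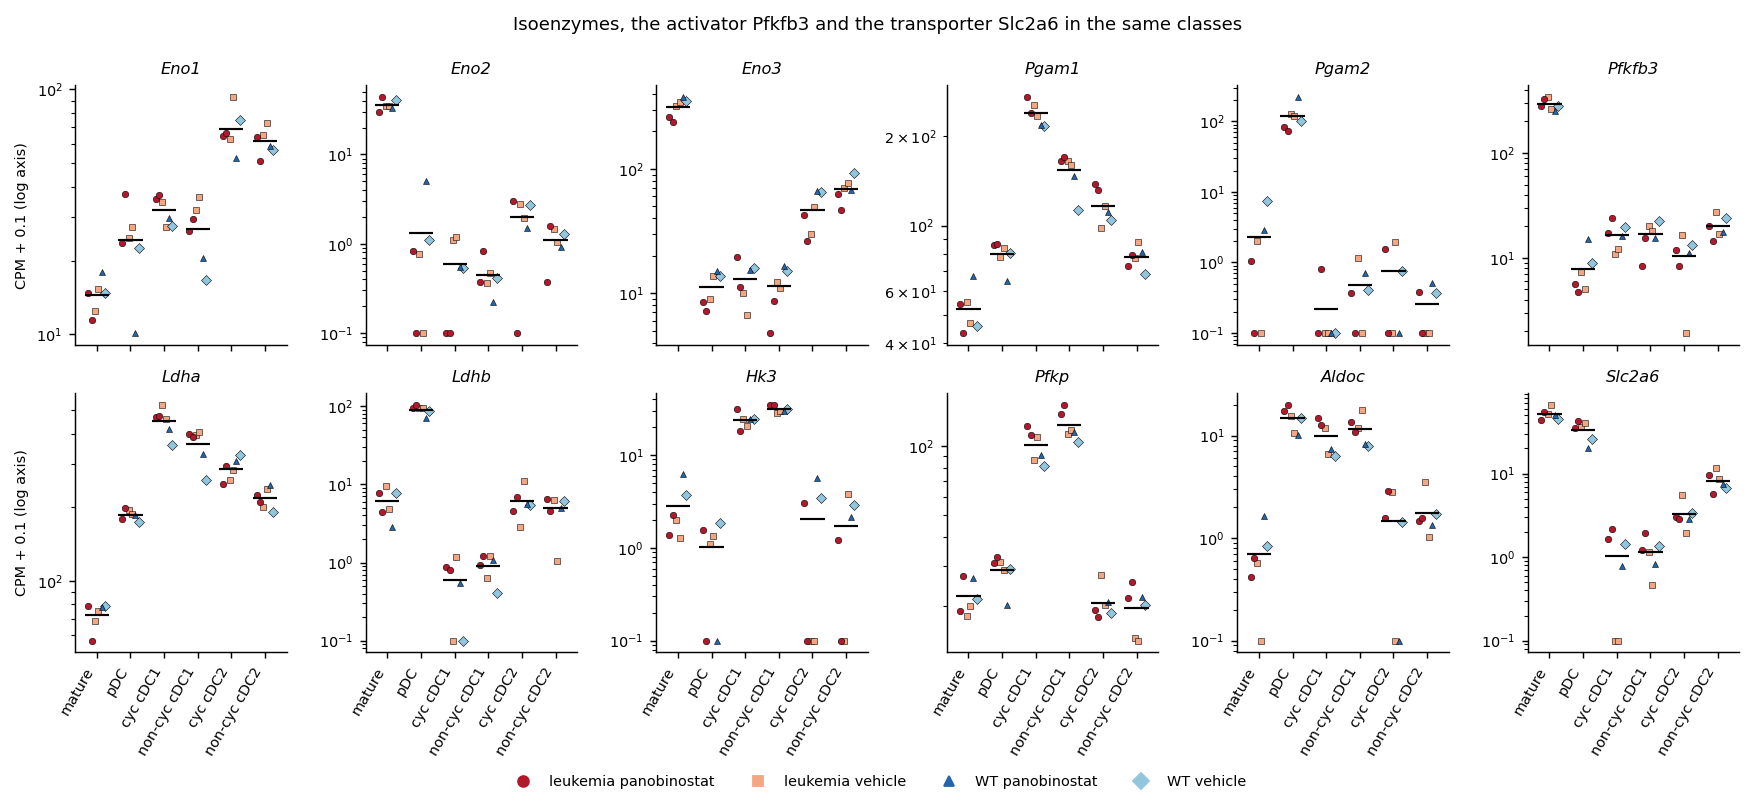
Enolases, phosphoglycerate mutases, lactate dehydrogenase subunits and other isoenzymes, with the activator Pfkfb3 and the transporter Slc2a6, in CPM + 0.1 on a log axis (own scale per gene). Each point is a hashed sample and each bar a class mean. Mature cells have the highest Eno2, Eno3, Pfkfb3 and Slc2a6, pDC-like cells the highest Pgam2 and Ldhb, and both cDC1-like classes the highest Hk3 and Pfkp.

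Glucose transporters also differed between the classes. Slc2a3, the high-affinity transporter GLUT3, had 3.08 to 9.35 CPM in mature cells, against 54.9 to 86.4 CPM in non-cycling cDC2-like cells, a log2 difference of -3.38 ± 0.15. Slc2a6, the transporter GLUT6 of lysosomal membranes, had 43.4 to 66.7 CPM in mature cells, against 0.367 to 1.85 CPM in non-cycling cDC1-like cells (5.57 ± 0.17). Both moved in 6 of 6 samples. Myc, a factor known to drive glycolysis genes, was lower in mature than in cDC2-like cells (-2.11 ± 0.25), as was the monocarboxylate transporter Slc16a7 (-1.88 ± 0.45). Adm, a hypoxia-responsive gene, was higher (4.23 ± 0.31). Against cDC1-like cells, the other named genes were Hk3 (-3.23 ± 0.22), Pfkp (-2.33 ± 0.09) and Aldoc (-3.69 ± 0.30), which were lower in mature cells, and Eno2 (6.87 ± 0.23) and Adm (6.27 ± 0.36), which were higher. The isoenzymes had a median log2 difference of 0.439 from the cDC2-like class and 0.054 from the cDC1-like class. Over all genes 43.7% were called in the cDC2 comparison and 51.5% in the cDC1 comparison, beside which the counts of 4 and 10 isoenzymes called and those of the lists that follow are to be read. Of 7 transport genes, 1 was higher and 3 lower against cDC2-like cells and 4 higher and 1 lower against cDC1-like cells. Of 8 genes for entry of pyruvate into mitochondria, 0 were higher and 2 lower in each comparison. Of 12 hypoxia genes outside glycolysis, 2 were higher and 4 lower against cDC2-like cells and 4 higher and 5 lower against cDC1-like cells. Of 7 genes of the pentose phosphate pathway, 1 was higher and 2 lower against cDC2-like cells, and 0 were higher and 2 lower against cDC1-like cells.

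Cycling cells came from clusters with at least 5 of 10 cell cycle genes raised. The cycling cDC1-like cluster had 5 raised and the cycling cDC2-like cluster 10. These genes summed to 2849 to 3330 CPM in cycling cDC1-like and 6331 to 7177 CPM in cycling cDC2-like cells. In both lineages, cycling cells had more Tpi1 and Gapdh and less Aldoa than non-cycling cells. Tpi1 had 113, 149.9 and 153 CPM in cycling cDC1-like cells, against 44.7, 67.4 and 87.9 CPM in non-cycling ones (lowest, median and highest). It had 92.5, 107 and 124 CPM in cycling cDC2-like cells, against 37.1, 46.8 and 55.3 CPM in non-cycling ones. The ranges did not overlap in either lineage, and the log2 differences were 0.95 ± 0.09 and 0.99 ± 0.12. Aldoa, the enzyme just before Tpi1, had 87.99, 109 and 118 CPM in cycling and 151, 166 and 191 CPM in non-cycling cDC1-like cells, a log2 difference of -0.81 ± 0.09. In the cDC2-like lineage it had 30.3, 45.2 and 58.1 CPM in cycling and 89.7, 119 and 144 CPM in non-cycling cells (-1.56 ± 0.12). Again no cycling sample reached the range of the non-cycling ones. Gapdh had 1020.3, 1143 and 1340.1 CPM in cycling and 517, 755 and 799 CPM in non-cycling cDC1-like cells (0.60 ± 0.06), and 1314, 1369 and 1518 CPM in cycling and 593, 669.9 and 784 CPM in non-cycling cDC2-like cells (0.80 ± 0.07). All cycling samples lay above all non-cycling ones. Adjusted p in the cDC2-like lineage was 1.1e-14 for Aldoa and 2.3e-09 for Tpi1, with 6 of 6 samples in the direction of each (edgeR quasi-likelihood test, Benjamini-Hochberg over all genes).

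In the cDC1-like lineage 3 members were called, 2 higher and 1 lower, where 16.0% of all genes tested were called. The median log2 difference was 0.217 over the members and -0.061 over all genes. Hk2, Gpi1, Pfkl, Pgk1, Eno1, Pkm and Ldha were not called and lay between -0.25 (Gpi1) and 0.46 (Pkm). In the cDC2-like lineage 4 members were called, the fourth being Hk2 as lower (-0.64 ± 0.12), where 26.6% of all genes were called, with medians of 0.079 and -0.185. There Gpi1, Pfkl, Pgk1, Eno1, Pkm and Ldha lay between -0.55 (Gpi1) and 0.58 (Pgk1). Gapdh in cDC1-like cells lay at the 1.5-fold limit and fell below it in 11 of its 14 alternatives, as far as 0.48, and Hk2 in cDC2-like cells did so in 13 of 17, as far as -0.40. For both genes these included the fits without leukemia vehicle sample 1, leukemia vehicle sample 2, leukemia panobinostat sample 2 or the WT panobinostat sample (0.50 to 0.56 for Gapdh and -0.46 to -0.52 for Hk2), and for Gapdh the fit without the WT vehicle sample (0.54). Pgk1 in cDC2-like cells passed the limit in 13 of 17, as far as 0.82. Tpi1 and Aldoa were called under all alternatives run that gave a value. Erythroid markers summed to 448 to 3465 CPM in cycling and 769 to 1378 CPM in non-cycling cDC1-like cells, and to 859 to 1620 CPM in cycling and 1174 to 1743 CPM in non-cycling cDC2-like cells, with all 8 present in each, and their part was not tested. The 2 cycling classes had more UMIs per cell than their non-cycling counterparts (a median of 18851 in cycling and 11972 in non-cycling cDC1-like cells, and of 8649 in cycling and 5120 in non-cycling cDC2-like cells). In cells thinned to 2000 UMIs, 2 members were called in the cDC1-like and 3 in the cDC2-like lineage.

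Of 10 isoenzymes tested in each lineage, 0 were called in cDC1-like cells and 1, Eno3, was lower in cDC2-like cells, beside 16.0% and 26.6% of all genes. Pgam1, the mutase between Pgk1 and the enolases, had 217 to 271 CPM in cycling and 112 to 169.8 CPM in non-cycling cDC1-like cells, with a log2 difference of 0.53 ± 0.08 that missed the 1.5-fold limit. By the rule for named genes, Mif, a cytokine listed among hypoxia genes, was higher in cycling cDC1-like cells (0.61 ± 0.12) and Bnip3l, a mitophagy receptor, was lower (-0.59 ± 0.08). In cycling cDC2-like cells Slc2a6 (-1.56 ± 0.35), Pfkfb3 (-1.16 ± 0.26) and G6pdx, the entry enzyme of the pentose phosphate pathway (-0.91 ± 0.27), were lower. Eno3 and Pgam1 were named after their values were seen.

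The pDC-like cells, the class known for type I interferon, had very little Hk2. It had 5.01, 6.00 and 9.37 CPM in pDC-like cells, against 96.3, 103 and 127 CPM in non-cycling cDC2-like and 53.5, 57.2 and 75.7 CPM in non-cycling cDC1-like cells. No sample of the pDC-like cells came near those ranges, and the log2 differences were -4.13 ± 0.15 and -3.45 ± 0.16. Tpi1 was lower as well, with 10.02, 21.3 and 23.8 CPM in pDC-like cells (log2 difference -1.23 ± 0.13 from cDC2-like cells and -1.84 ± 0.12 from cDC1-like cells). Against cDC1-like cells Pgk1 (-1.66 ± 0.08), Ldha (-1.25 ± 0.08), Pkm (-0.82 ± 0.07), Gapdh (-0.76 ± 0.07) and Gpi1 (-0.60 ± 0.07) were also lower, which made 7 members lower and 0 higher. Of all genes, 45.8% were called there (19.8% as lower), and the medians were -0.789 over the members and 0.088 over all genes. With total UMIs in place of scaling factors the median over all genes moved to 0.389 and over the members to -0.484, and 4 members were called, with Gpi1, Gapdh and Pkm under the 1.5-fold limit at -0.30, -0.45 and -0.52. Against cDC2-like cells 4 members were lower, Hk2, Tpi1, Eno1 (-1.47 ± 0.13) and Pkm (-0.63 ± 0.08), and 0 higher, where 42.2% of genes were called (21.9% as lower), with medians of -0.489 and -0.025. Adjusted p was 1.9e-27 for Hk2, 1.9e-11 for Tpi1, 2.7e-14 for Eno1 and 1.1e-09 for Pkm there, each lower in 6 of 6 samples (edgeR quasi-likelihood test, Benjamini-Hochberg). The Pkm call was lost under 5 alternatives, including the fit without leukemia vehicle sample 1 (-0.56), and Gapdh was called under 3, including the fit without the WT vehicle sample (-0.60). Against cDC1-like cells the Gpi1 call was lost under 4 alternatives, with the WT vehicle sample left out (-0.57), finer clusters (-0.50), total UMIs and thinning to 2000 UMIs (-0.42), and the Gapdh call under the last 2 of these. The members not called ran between -0.43 (Aldoa) and -0.33 (Eno1) against cDC1-like cells and between -0.58 (Gapdh) and 0.27 (Aldoa) against cDC2-like cells. Monocyte markers summed to 2167 to 2903 CPM in pDC-like cells, 197 to 238 CPM in non-cycling cDC1-like cells and 164 to 1287 CPM in non-cycling cDC2-like cells, with all 8 markers present in each, and their part was not tested.

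In the same cells the muscle-type mutase Pgam2 and the lactate dehydrogenase subunit Ldhb were high. Pgam2 had 83.4 and 73.8 CPM in pDC-like cells of the panobinostat-treated leukemia samples, 127 and 118 CPM in the vehicle-treated leukemia samples, 220.3 CPM in the WT panobinostat sample and 103 CPM in the WT vehicle sample. It had 1694 UMIs in pDC-like cells, against 4 UMIs in non-cycling cDC2-like cells and 14 UMIs in non-cycling cDC1-like cells. Ldhb had 70.1 to 104 CPM in pDC-like cells, against 0.935 to 6.37 CPM in cDC2-like and 0.310 to 1.11 CPM in cDC1-like cells, with log2 differences of 3.87 ± 0.15 and 6.57 ± 0.19. Each pDC-like sample lay above all samples of both classes for both genes. Slc16a7 was higher against cDC1-like cells (97 UMIs, against 3 UMIs in cDC1-like cells) and Aldoc against cDC2-like cells (2.96 ± 0.27). Myc was lower against both (-3.41 ± 0.30 and -3.09 ± 0.30), as were Vegfa (-4.88 ± 0.67) and the lactate exporter Slc16a3 (-3.43 ± 0.48) against cDC2-like cells and Hk3 (-4.88 ± 0.28) and Pfkp (-2.27 ± 0.09) against cDC1-like cells. Of 10 isoenzymes tested, 3 were higher and 3 lower against cDC1-like cells (median log2 difference 0.051), and 3 were higher and 1 lower against cDC2-like cells (0.135), beside the 45.8% and 42.2% of all genes called.

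Between the non-cycling classes, cDC1-like cells had more Pgk1, Ldha, Aldoa and Tpi1 and less Eno1 and Hk2 than cDC2-like cells. Pgk1, the first ATP-yielding step, had 156, 178 and 188 CPM in cDC1-like cells, against 67.6, 68.7 and 86.1 CPM in cDC2-like cells. The ranges were apart, with a log2 difference of 1.42 ± 0.08. Eno1 had 16.5, 27.98 and 36.3 CPM in cDC1-like cells, against 50.9, 61.2 and 72.9 CPM in cDC2-like cells, again apart (-1.15 ± 0.11). The other differences were 0.85 ± 0.08 for Ldha, 0.70 ± 0.08 for Aldoa, 0.61 ± 0.10 for Tpi1 and -0.68 ± 0.10 for Hk2. That made 4 members higher and 2 lower, where 34.2% of all genes were called, with medians of 0.318 over the members and -0.116 over all genes. Adjusted p was 1.4e-20 for Pgk1 and 8.7e-13 for Eno1 (edgeR quasi-likelihood test, Benjamini-Hochberg), each in 6 of 6 samples, and Gpi1, Pfkl, Gapdh and Pkm, not called, lay between 0.18 (Gapdh) and 0.35 (Gpi1). Without scaling factors, Aldoa (0.57) and Tpi1 (0.48) fell below the 1.5-fold limit and the median over all genes was -0.256. The Tpi1 call was also lost with the ratio hashtag call (0.55), at a limit of 5% mitochondrial UMIs (0.52) and with finer clusters (0.38). The Hk2 call was lost without either leukemia vehicle sample (-0.57 without sample 1 and -0.56 without sample 2) and under 3 further alternatives.

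Several isoenzymes and transporters differed between the lineages as well. Hk3 had 28.8 to 34.9 CPM in non-cycling cDC1-like cells, against 0 to 3.74 CPM in cDC2-like cells (4.30 ± 0.24), so that the hexokinase genes Hk2 and Hk3 moved in opposite directions. Pfkp, the platelet-type phosphofructokinase, had 104 to 151 CPM in cDC1-like cells, against 14.03 to 25.5 CPM in cDC2-like cells (2.70 ± 0.09), and Aldoc was also higher in cDC1-like cells (2.84 ± 0.25). Slc2a3 had 0.734 to 4.43 CPM in cDC1-like cells, against 54.9 to 86.4 CPM in cDC2-like cells (-4.65 ± 0.15), and Slc16a7 (3 UMIs in cDC1-like cells, against 49 UMIs in cDC2-like cells) and Vegfa (-4.27 ± 0.51) were lower too. Hk3, Pfkp, Aldoc and Slc2a3 each moved in 6 of 6 samples, and the largest adjusted p among them was 1.2e-13 (edgeR quasi-likelihood test, Benjamini-Hochberg). Of 10 isoenzymes tested 4 were higher and 4 lower (median log2 difference 0.597), and of 7 transport genes 0 were higher and 4 lower (-2.09), beside the 34.2% of all genes called.

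Panobinostat for 2 days moved 0 members past the threshold. Each class was fitted by itself with disease state in the model, and a call needed an adjusted p under 0.05. Of 60 pairs of member and class, edgeR's quasi-likelihood test called 0, 6 had an unadjusted p under 0.05 (4 in non-cycling cDC1-like cells, 1 in non-cycling cDC2-like cells and 1 in mature cells), and DESeq2 called 0. Of all genes tested, 0.306% were called in mature cells, 0.208% in pDC-like cells, 0.286% in cycling and 2.05% in non-cycling cDC1-like cells, and 0.228% in cycling and 0.586% in non-cycling cDC2-like cells. Log2 differences over all pairs lay between -0.41 (Hk2 in mature cells) and 0.67 (Pfkl in cycling cDC2-like cells). The median over the members was 0.134 in non-cycling cDC1-like cells, where it was -0.003 over all genes.

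In non-cycling cDC1-like cells the 4 members with an unadjusted p under 0.05 were Pkm, Tpi1, Gapdh and Pgk1. Pkm had 182, 196 and 160.2 CPM in panobinostat-treated leukemia samples 1 and 2 and the panobinostat-treated WT sample, against 178, 172 and 130.3 CPM in vehicle-treated leukemia samples 1 and 2 and the vehicle-treated WT sample. The ranges overlapped, because both leukemia vehicle samples lay above the WT panobinostat sample, and the log2 difference was 0.20 ± 0.07 with an adjusted p of 0.18 (edgeR quasi-likelihood test, Benjamini-Hochberg). The differences were 0.25 ± 0.10 for Tpi1, 0.14 ± 0.06 for Gapdh and 0.15 ± 0.07 for Pgk1. Ldha had 401, 388 and 331 CPM in panobinostat-treated leukemia samples 1 and 2 and the panobinostat-treated WT sample, against 396, 407 and 260.0 CPM in vehicle-treated leukemia samples 1 and 2 and the vehicle-treated WT sample. Here the WT vehicle sample was lowest and leukemia vehicle sample 2 highest, and the drug groups overlapped (0.13 ± 0.07). Without leukemia panobinostat sample 1, Tpi1 was called in these cells at 0.39 and Hk2 was called in mature cells at -0.82. Without the WT vehicle or the WT panobinostat sample, Aldoa was called in non-cycling cDC2-like cells at -0.44 and -0.43.

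**Figure D4:**
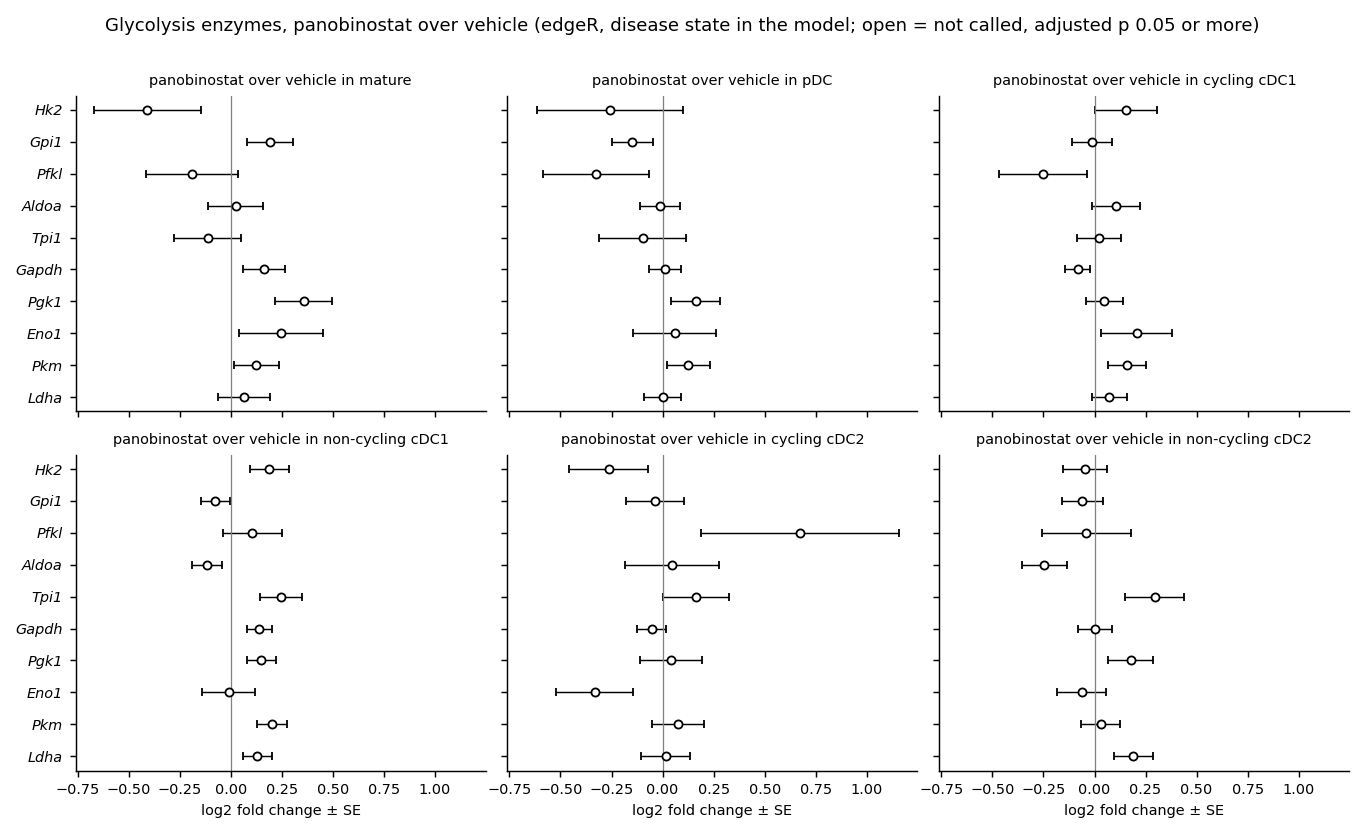
Log2 fold change of each member for panobinostat over vehicle in each class (points) with its standard error (bars), from edgeR fits with disease state in the model. All points are open, as 0 of 60 passed an adjusted p under 0.05, and the points run between -0.41 and 0.67.

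Hk2 in mature cells had the most negative difference. It had 27.6, 17.3 and 13.9 CPM in panobinostat-treated leukemia samples 1 and 2 and the panobinostat-treated WT sample, against 21.8, 16.4 and 35.95 CPM in vehicle-treated leukemia samples 1 and 2 and the vehicle-treated WT sample. The groups overlapped, with the highest value in the WT vehicle sample and the lowest in the WT panobinostat sample, and the difference was -0.41 ± 0.26 with an adjusted p of 0.64 (edgeR quasi-likelihood test, Benjamini-Hochberg). Whether the drug effect differed between classes was tested by an interaction of class and treatment for pDC-like, non-cycling cDC2-like and mature cells, each against non-cycling cDC1-like cells. Of 30 pairs 0 were called by edgeR, 2 had an unadjusted p under 0.05 (Pfkl in pDC-like cells and Hk2 in mature cells), and DESeq2 called 0, where 0.00916%, 0.0367% and 0% of all genes were called. Between disease states the drug effect differed for 1 of 60 pairs, Gapdh in non-cycling cDC2-like cells, where 0.767% of all genes were called; each WT treatment there has 1 sample. In the pathway lists edgeR's quasi-likelihood test with Benjamini-Hochberg adjustment called 2 genes, both in non-cycling cDC1-like cells: Pfkfb3 was lower (-0.61 ± 0.15, adjusted p = 0.036) and Mif higher (0.30 ± 0.07, adjusted p = 0.029). Pfkfb3 had 8.25, 15.5 and 15.5 CPM in panobinostat-treated leukemia samples 1 and 2 and the panobinostat-treated WT sample, against 19.99, 17.97 and 22.5 CPM in vehicle-treated leukemia samples 1 and 2 and the vehicle-treated WT sample. The groups lay apart, but neither gene was called by DESeq2, and Pfkfb3 was at 0.11 without doublet removal and 0.043 at a limit of 5% mitochondrial UMIs. The Pfkfb3 call was lost when any sample but leukemia panobinostat sample 2 was left out, with log2 differences of -0.44 to -0.72. The Mif call was lost when any sample but leukemia panobinostat sample 1 was left out (0.25 to 0.32).

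In non-cycling cDC1-like cells 5 members were higher in leukemia-bearing than in WT samples, a comparison of 4 leukemia samples with 2 WT samples and treatment in the model. Eno1 had 26.4 and 29.5 CPM in the panobinostat-treated leukemia samples and 31.98 and 36.3 CPM in the vehicle-treated leukemia samples, against 20.4 CPM in the WT panobinostat sample and 16.5 CPM in the WT vehicle sample. All leukemia samples lay above both WT samples, with a log2 difference of 0.66 ± 0.13 and an adjusted p of 0.00088 (edgeR quasi-likelihood test, Benjamini-Hochberg). Gapdh had 749 and 799 CPM in the panobinostat-treated leukemia samples and 765 and 760.3 CPM in the vehicle-treated leukemia samples, against 639 CPM in the WT panobinostat sample and 517 CPM in the WT vehicle sample. Ldha had 401 and 388 CPM in the panobinostat-treated leukemia samples and 396 and 407 CPM in the vehicle-treated leukemia samples, against 331 CPM in the WT panobinostat sample and 260.0 CPM in the WT vehicle sample. For both genes the leukemia samples again lay above the WT samples, and the differences were 0.31 ± 0.06 for Gapdh and 0.34 ± 0.07 for Ldha. Tpi1 (0.39 ± 0.10) and Pkm (0.23 ± 0.08) were also higher, with 4 of 4 leukemia samples above both WT samples. Adjusted p was 0.0013 for Gapdh, 0.0028 for Ldha, 0.011 for Tpi1 and 0.041 for Pkm in the same fit. Hk2, Gpi1, Pfkl, Aldoa and Pgk1 were not called there and lay between -0.11 (Gpi1) and 0.09 (Pfkl). The count of 5 stands beside 14.0% of all genes called in these cells, 6.30% as higher, with a median of 0.16 over the members and 0.01 over all genes.

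**Figure D5:**
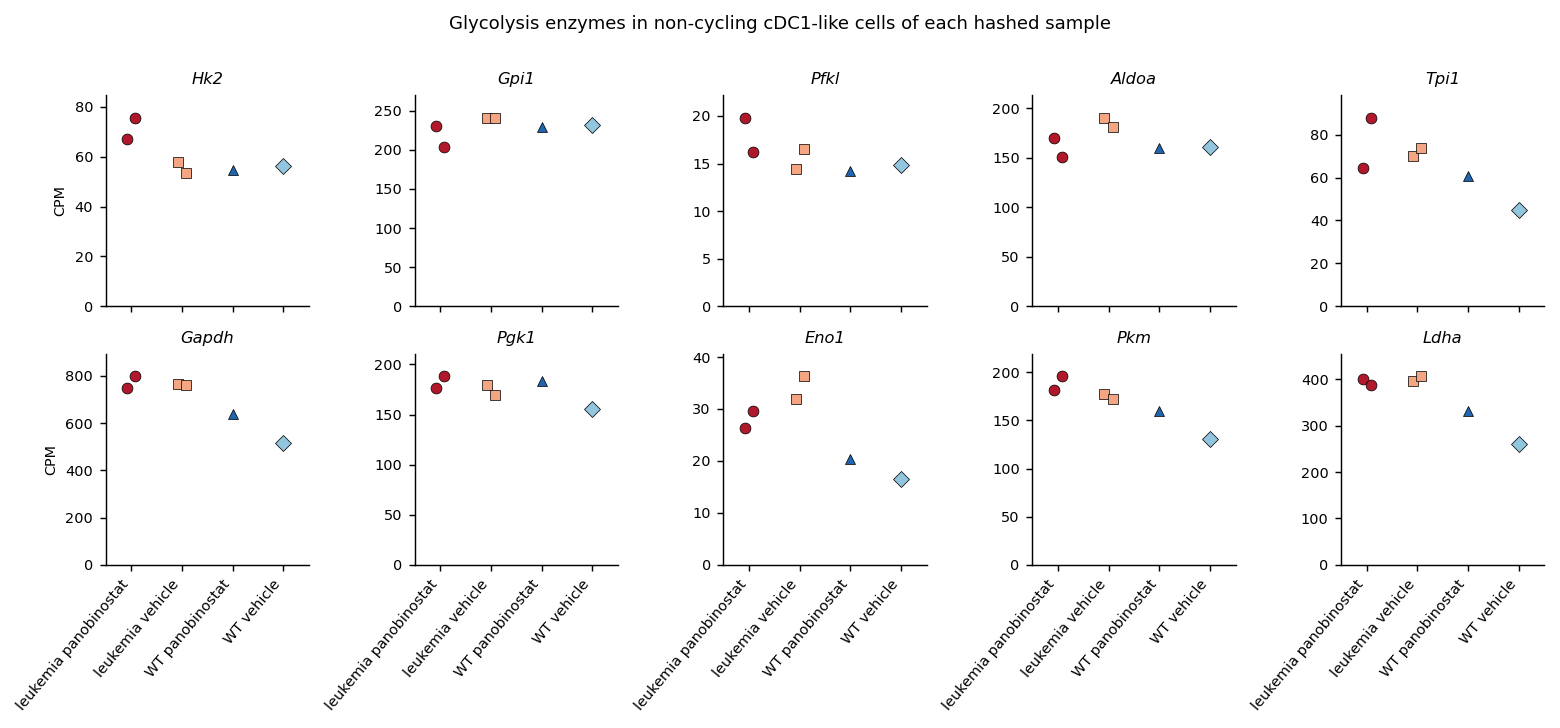
Each member in non-cycling cDC1-like cells of each hashed sample, in CPM (linear axis from 0, own scale per gene). Points are single samples by disease state and treatment. For Tpi1, Gapdh, Eno1, Pkm and Ldha the WT vehicle sample is the lowest and all 4 leukemia samples lie above both WT samples, while Gpi1 and Aldoa show no such order.

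These 5 calls rested on the WT vehicle sample. Without it the log2 differences were 0.35 for Eno1, 0.21 for Tpi1, 0.18 for Gapdh, 0.16 for Ldha and 0.14 for Pkm, and 0 of the 5 were called, while Aldoa in mature cells was called as lower (-0.61). Without leukemia vehicle sample 1, Tpi1 (0.38) and Pkm (0.20) lost their calls, and Pkm also without leukemia vehicle sample 2 or leukemia panobinostat sample 2 (0.22 without each). Over all alternatives the Pkm call was lost under 12, down to 0.14, the Tpi1 call under 5, the Gapdh call under 3, and the Eno1 and Ldha calls under 2 each. DESeq2 lost Tpi1 and Pkm, the 5% mitochondrial limit Tpi1, Gapdh and Pkm, thinning to 2000 UMIs Tpi1, Pkm and Ldha, the absence of doublet removal Gapdh and Pkm, and finer clusters Eno1 and Pkm. Pkm was also lost with no filter on low counts, with the ratio hashtag call and with the glycolysis lists in the clustering. The non-cycling cDC1-like cells of the WT vehicle sample also carried 413.7 CPM of pancreatic acinar markers summed over 10 genes, against 2.18 to 6.23 CPM in those of the other samples. Its 10 cell cycle markers summed to the lowest value there, 139.2 CPM, against 191.8 to 245.5 CPM in the leukemia samples and 202.6 CPM in the WT panobinostat sample. The part of either marker list was not tested. In the other 5 classes 0 members were called by edgeR or DESeq2, with 6 pairs at an unadjusted p under 0.05, where 1.52% of genes were called in mature cells, 0.798% in pDC-like cells, 2.56% in cycling cDC1-like cells, and 0.456% and 0.728% in cycling and non-cycling cDC2-like cells. Tpi1 in cycling cDC1-like cells had a difference of 0.32 ± 0.11 and Ldha of 0.23 ± 0.09.

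Of the pathway lists, Ndrg1, a hypoxia-responsive gene (1.03 ± 0.25), Myc (0.75 ± 0.22) and Aldoc (0.65 ± 0.18) were higher in non-cycling cDC1-like cells of leukemia-bearing than of WT samples, and Eno3 (-0.89 ± 0.19) and Txnip, an inhibitor of glucose uptake (-0.54 ± 0.09), were lower. Txnip was also lower in non-cycling cDC2-like cells (-0.48 ± 0.09), and Mif was higher in cycling cDC1-like cells (0.40 ± 0.11). Without the WT vehicle sample, Ndrg1 (1.39), Eno3 (-1.46) and Txnip (-0.62) were called in non-cycling cDC1-like cells, Myc (0.90) and Aldoc (0.50) were not, and Txnip was not called in non-cycling cDC2-like cells (-0.44). Without the WT panobinostat sample, Txnip (-0.47) was called in cDC1-like cells, while Ndrg1 (0.78), Myc (0.59), Aldoc (0.77), Eno3 (-0.47) and Mif in cycling cDC1-like cells (0.23) were not. Of 8 hypoxia genes outside glycolysis tested in non-cycling cDC1-like cells, 4 were higher (Higd1a, Mif, Ndrg1 and P4ha1) and 0 lower, with a median log2 difference of 0.229. Of 7 isoenzymes there, 2 were higher (Aldoc and Pgam1) and 1 lower (Eno3), with a median of 0.13, and of 8 genes for entry of pyruvate into mitochondria 1 was higher (Pdha1) and 0 lower, with a median of 0.142. Of all genes, 14.0% were called there and 6.30% as higher. Without the WT vehicle sample the hypoxia genes called as higher were Mif and Ndrg1 (2 of 8), 0 isoenzymes were higher and 1, Eno3, was lower, 0 pyruvate entry genes were called, and the count over all genes was 460, against 1298 with it. Higd1a, P4ha1, Pgam1, Pdha1 and, in non-cycling cells, Mif were named after their values were seen.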

How the data were processed

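A single droplet capture of splenic DCs was analysed, with 6 hashed samples in 4 groups. The gene by barcode counts were used as deposited by the authors, as UMI counts that had not been normalized; the submitters' processing notes name Cell Ranger 3.1.0, Seurat 3.1.0 and the builds mm10 and GRCm38, with no role or order. Barcodes were assigned by hashtag (negative binomial background, 99% quantile), and cells with at least 500 genes and at most 10% mitochondrial UMIs were kept. Doublets were removed by a simulated-doublet score of 0.5 or more, which took 9.61% of the cells with a single hashtag. Another 12653 barcodes carried several hashtags and were left out. The score flagged 41.3% of those that passed the cell filters, so doublets of cells from the same sample can remain.

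Cells were clustered in Python 3.11.15 (scanpy 1.11.5, leidenalg 0.10.2; 2000 variable genes without the pathway genes, 30 components, 15 neighbours, resolution 1). Clusters were named from marker lists when at least 3 markers reached 20 CPM and a log2 fold of 1. They stayed unnamed where the leading genes held more markers of another class, or where UMIs were few and no own marker led. A pancreatic acinar list was added after the data were seen, and served to leave clusters unnamed. UMIs were summed per class and hashed sample, and tested with edgeR 4.0.16 in R 4.3.3 (TMM, quasi-likelihood, Benjamini-Hochberg over all genes tested), with hashed sample as a block between classes and with disease state and treatment within a class. Changes between classes also had to reach 1.5-fold. DESeq2 1.42.0 was an alternative, and the fits were tested on simulated data.

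All 10 members were named in each comparison, and of the other 6 lists at most the 3 called genes with the greatest change per direction; further genes are marked as named after their values were seen. The members and lists were chosen with earlier results of these data known. The class sums held 199709 to 12896933 UMIs, which sets the counting precision. CPM is not divided by transcript length, so levels are compared within a gene, and the sums over members are weighted to the abundant ones. Within a class, a lower CPM is a lower share of its RNA and not a lower amount per cell. Sample numbers 1 and 2 of the leukemia groups were not used to pair the samples in the main fits. Deviations of same-numbered samples correlated at -0.04 to 0.055, which cannot show whether these samples shared an origin.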

Additional observations from a re-analysis of the deposited data

Results flagged for a closer look

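The panobinostat effect of a member differed between leukemia-bearing and WT samples in 1 class. For Gapdh in non-cycling cDC2-like cells the log2 effect in leukemia minus that in WT was -0.48 (SE 0.126, adjusted p = 0.031, edgeR quasi-likelihood test with Benjamini-Hochberg adjustment; 0.767% of all genes were called). Gapdh had 639 and 637 CPM in the panobinostat-treated leukemia samples and 700.3 and 784 CPM in the vehicle-treated leukemia samples, and 706 CPM in the WT panobinostat sample and 593 CPM in the WT vehicle sample. Both leukemia panobinostat samples lay below both leukemia vehicle samples, and the WT panobinostat sample lay above the WT vehicle sample. The 2 clusters of this class, of 3129 and 334 cells, had 630 and 731 CPM of Gapdh and 108 and 148 CPM of Aldoa. The WT vehicle sample gave the most cells of the larger (45.7%) and leukemia panobinostat sample 1 of the smaller (26.0%). The part of this mix in differences between samples was not tested.

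Pgam2, a mutase isoenzyme, differed in the same way in pDC-like cells, at -1.678 (SE 0.284, adjusted p = 0.00018 in the same kind of edgeR fit; 0.212% of all genes were called). It had 83.4 and 73.8 CPM in the panobinostat-treated leukemia samples and 127 and 118 CPM in the vehicle-treated leukemia samples, and 220.3 CPM in the WT panobinostat sample and 103 CPM in the WT vehicle sample. The WT panobinostat value rests on 44 UMIs from 38 cells. Each WT treatment has 1 sample, so the WT effect has no replicate of its own, and these tests were added after the data were seen.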

How the results depend on the processing

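Of 35 member results called between classes, 529 of 586 alternatives gave the same call and direction, 57 ended the call and 0 turned the direction. Hk2, Ldha, Eno1 and Aldoa between mature and non-cycling cDC2-like cells, Tpi1 and Aldoa in both cycling comparisons, and Hk2 and Tpi1 in both pDC comparisons were called under all alternatives that gave a value. With total UMIs in place of scaling factors, 4 members were called between pDC-like and non-cycling cDC1-like cells. Under that scaling the median over all genes was -0.25 for mature over non-cycling cDC2, 0.023 for mature over non-cycling cDC1, 0.068 and 0.051 for cycling over non-cycling cDC1 and cDC2, 0.389 and 0.137 for pDC over non-cycling cDC1 and cDC2, -0.256 for non-cycling cDC1 over cDC2 and 0.113 for leukemia over WT in non-cycling cDC1-like cells. It added Pkm for mature over non-cycling cDC1 (-0.64) and for cycling over non-cycling cDC1 (0.59). Leaving out 1 sample at a time gave 4 to 5 calls for mature over non-cycling cDC2, 6 to 7 for mature over non-cycling cDC1, 2 to 3 for cycling over non-cycling cDC1, 4 to 5 for cycling over non-cycling cDC2, 6 to 7 for pDC over non-cycling cDC1, 3 to 5 for pDC over non-cycling cDC2 and 5 to 6 for non-cycling cDC1 over cDC2. Without leukemia vehicle sample 2, the sample that stood apart, these 7 counts were 4, 7, 2, 4, 7, 4 and 5.

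For panobinostat the same ranges were 0 to 1 in non-cycling cDC1-like, non-cycling cDC2-like and mature cells, and 0 to 0 in the other classes and for the difference between classes. In the leukemia-bearing samples alone, 1 member was called in non-cycling cDC2-like cells (Aldoa). With the replicate block, 0 members were called in each class. For leukemia over WT, summed over the DC-like classes, 3 members were called by DESeq2, 3 without doublet removal, 2 at a limit of 5% mitochondrial UMIs, 3 at resolution 2 and 2 in cells thinned to 2000 UMIs. Leaving out 1 sample gave 1 to 6, with 1 (another member) without the WT vehicle sample, 3 without leukemia vehicle sample 1 and 6 without the WT panobinostat sample. Pfkfb3 in non-cycling cDC1-like cells, lower with panobinostat, was at 0.112 without doublet removal and 0.043 at the 5% limit, and the cause was not tested. The cycling cDC1 comparison has no value with the ratio hashtag call, without doublet removal or at the 5% limit, where its cluster stayed unnamed. Over all 4680 alternatives for 276 pairs of gene and comparison, 4185 gave the same call and direction, 151 ended a call and 38 gained one. In 304 the sign turned with no call in either fit, and in 2 it turned where a fit had a call. The low counts of Pfkl (2412 UMIs in all kept cells) and the 38 pDC-like cells of the WT panobinostat sample limit what could be detected.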

Other observations

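Cells of other kinds were kept as well and entered no comparison. Their levels are described only, since they came through a selection meant to remove them. Cycling erythroid-like cells, red cell precursors of the spleen, numbered 805 in 6 samples, of which the 5 samples with at least 10 held 797. In these 5 samples the summed level of the 10 enzymes was 2181.7 ± 489.9 CPM, with 1260.5 ± 228 CPM of Gapdh, 126 ± 37.7 CPM of Tpi1 and 42.4 ± 9.71 CPM of Pkm (mean ± SD over samples). Pkm there was lower than in any sample of the DC-like classes, the lowest of which is a mature sample at 100.1 CPM. In 478 monocyte-like cells of 6 samples the sum was 1677 ± 150.5 CPM, with 56.9 ± 14.99 CPM of Hk2 and 26.7 ± 11.3 CPM of Tpi1. In 315 B cell-like cells of 6 samples the sum was 2404 ± 829 CPM, and single samples ran between 1449.7 and 3632 CPM. Platelet-like cells numbered 88 in 6 samples, and in the 3 samples with at least 10 (69 cells) the sum was 3207 ± 339 CPM, with 632 ± 170.4 CPM of Ldha. In the other 3, with 4 to 8 cells, it was 1921 and 1925 CPM in leukemia vehicle samples 1 and 2 and 3506 CPM in leukemia panobinostat sample 1. Red pulp macrophage-like cells numbered 240, and the sum was 1848 and 2196 CPM in the 2 samples with at least 10 (223 cells). Clusters left unnamed held 3647 cells.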
